A study of Homo sapiens with 8 samples.

Results

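Bone morphogenetic protein (BMP) signalling was followed through 10 genes in a prostate cancer model of epithelial-to-mesenchymal transition (EMT). They were the ligands BMP2, BMP4 and BMP7, the inhibitors SMAD6, SMAD7 and BAMBI, and the target genes ID1, ID2, ID3 and ID4. Every probe set annotated to 1 of these symbols alone was taken, which gave 22 of the 54613 probe sets that are not controls, and 10 of 19775 genes. 1 more ID2 probe set also carries the symbol ID2B and was not used. The EMT group held 3 arrays of the untransduced mesenchymal lines PC3-EMT1, PC3-EMT12 and PC3-EMT14, which were isolated after PC3-Epi cells had been grown with IL4-treated macrophages. PC3-Epi, with 1 array, is an untransduced, luciferase-expressing epithelial subpopulation of the prostate cancer line PC3. The sh4 group held PC3-EMT1 and PC3-EMT14 transduced with the lentiviral ZEB1 shRNA sh4 and labelled epithelial (2 arrays). The Scr group held the same lines with a scrambled shRNA, labelled mesenchymal (2 arrays). All cells descend from PC3-Epi, and nothing in the labels describes repeat cultures of a line, so the p-values reflect the spread between single arrays and no more.

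BMP ligands bind paired serine/threonine kinase receptors, which phosphorylate SMAD1, SMAD5 and SMAD9, and these enter the nucleus with SMAD4. The ID genes are among the most direct targets of this route, and their products bind E proteins such as TCF3, TCF4 and TCF12 and keep them from DNA. SMAD6, SMAD7 and the decoy receptor BAMBI are induced by the pathway and dampen it, and in prostate cancer BMP signalling is known for its part in bone metastasis. In epithelial cells, E proteins can repress CDH1, the gene of E-cadherin.

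ZEB1, the EMT activator that sh4 targets, was read at 6.64, 6.74 and 6.50 (log2 RMA level) in lines PC3-EMT1, -EMT12 and -EMT14, against 4.26 in PC3-Epi (212758_s_at), which was not above the control limit explained below. At 212764_at it was at 9.12 and 9.01 in the sh4 arrays of PC3-EMT1 and PC3-EMT14, against 9.87 and 10.08 in the Scr arrays of the same lines. Of 7 epithelial markers, 4 were above the limit in each EMT array, against 7 in PC3-Epi, and 7 in each sh4 array, against 4 in each Scr array. Of 7 mesenchymal markers, 7 were above it in each EMT array, against 5 in PC3-Epi, and 6 or 7 in the sh4 arrays, against 7 in each Scr array. Their levels did not all move in 1 direction. Averaged over lines, FN1 and SNAI2 differed by -0.37 and -0.11 between EMT and PC3-Epi, and the others were higher. Between sh4 and Scr, CDH2, TWIST1 and SNAI2 differed by 0.46, 0.35 and 0.20, and the others were lower. Of 13 macrophage markers, only LAPTM5 and CD74 exceeded the limit in the untransduced arrays, where CD14, CD163, CSF1R and PTPRC lay under it. Their summed linear level was 200 to 205 in EMT, against 182 in PC3-Epi, and 690 to 717 in sh4, against 696 to 722 in Scr (CSF1R, LAPTM5, AIF1 and CD74 above the limit). The array medians were 4.33 to 4.35 in the untransduced and 6.19 to 6.23 in the transduced set, so levels were compared only inside a set. The level of a probe set depends on its probes, so genes were not ranked by level. In bulk RNA, fewer cells with a transcript and less of it per cell cannot be told apart.

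The sequence just before the start site of ID1, ID2 and ID3 is shown because these target genes are the members described in most detail. RefSeq (GRCh38.p14) gave an entry for 8 of the 10 members, and the 250 bases before the annotated start are printed for ID1 (chr20:31605039-31605288, + strand), ID2 (chr2:8681806-8682055, + strand) and ID3 (chr1:23559502-23559751, - strand), 5′ to 3′. Capitals mark matches to 5 short motifs: the ZEB1 E-box (CACCTG), the SMAD box (CAGAC), the GC-rich BMP SMAD box (GGCGCC) and the CCAAT box (CCAAT), each on both strands, and the TATA box (TATAAA) on the gene's strand.
ID1: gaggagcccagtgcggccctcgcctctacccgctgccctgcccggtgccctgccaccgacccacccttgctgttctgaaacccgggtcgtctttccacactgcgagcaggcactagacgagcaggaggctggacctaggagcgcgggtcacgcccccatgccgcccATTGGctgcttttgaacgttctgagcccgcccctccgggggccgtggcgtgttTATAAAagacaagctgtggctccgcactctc
ID2: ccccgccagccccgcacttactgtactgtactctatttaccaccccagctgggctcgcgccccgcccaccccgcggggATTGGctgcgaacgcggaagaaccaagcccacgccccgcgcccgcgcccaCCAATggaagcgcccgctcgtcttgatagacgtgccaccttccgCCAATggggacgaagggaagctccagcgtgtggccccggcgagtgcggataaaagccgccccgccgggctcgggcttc
ID3: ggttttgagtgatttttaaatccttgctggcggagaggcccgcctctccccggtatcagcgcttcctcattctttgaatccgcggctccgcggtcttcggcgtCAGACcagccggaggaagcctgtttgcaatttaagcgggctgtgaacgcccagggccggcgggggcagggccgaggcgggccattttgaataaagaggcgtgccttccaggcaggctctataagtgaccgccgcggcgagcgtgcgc

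ID1 held a TATA box that begins 31 bases before the start and a CCAAT box at 84 bases. ID2 held 3 CCAAT boxes, at 172, 122 and 78 bases, and no match to the other motifs. ID3 held a SMAD box at 147 bases as its only match. The ID4 window held a SMAD box at 205 bases, a CCAAT box at 220 and a TATA box at 29. BAMBI held 3 GC-rich boxes, at 209, 196 and 181 bases, 2 SMAD boxes, at 189 and 140, and a CCAAT box at 92. No ID window held a ZEB1 E-box, and among the members 1 of the 3 SMAD7 start sites had one, 49 bases upstream. Of 35116 windows of this length, 17.5% held the ZEB1 E-box, 38% the SMAD box, 16.4% the GC-rich box, 32% the CCAAT box and 6.8% the TATA box. The matches are a description of these windows and were not tested as sites.

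At the member probe sets tested, ID2, ID3 and BMP7 lay above PC3-Epi in every EMT line and BMP4, SMAD6 and SMAD7 below it. ID1 and BAMBI lay on both sides. PC3-Epi has 1 array, and the share of all probe sets with every line on 1 side of it was not counted. A probe set was tested where at least 1 array of the set exceeded the highest of 27 Bacillus subtilis control probe sets, the control limit (4.56 in the untransduced and 6.00 in the transduced set). Of the 22 member probe sets, 10 passed this filter, for 8 genes, and 2 of the 10 were called by limma's moderated test (Benjamini-Hochberg adjusted p under 0.05), both lower. They were SMAD6 207069_s_at and SMAD7 204790_at, and SMAD7 entered the test through its PC3-Epi array alone. Of the 10, 6 had an unadjusted p under 0.05 in limma, against 40.5% of all probe sets tested. Among all 27734 probe sets tested, 14.6% were called lower and 9.89% higher, 24.5% in all, so calls were common. The median difference was 0.08 (log2) over the 10 member probe sets and 0.05 over all those tested. By the study's limit of a 2-fold change, applied here to each line in 1 direction, 0 members were called, against 2.02% of all probe sets higher and 4.71% lower.

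**Figure D1:**
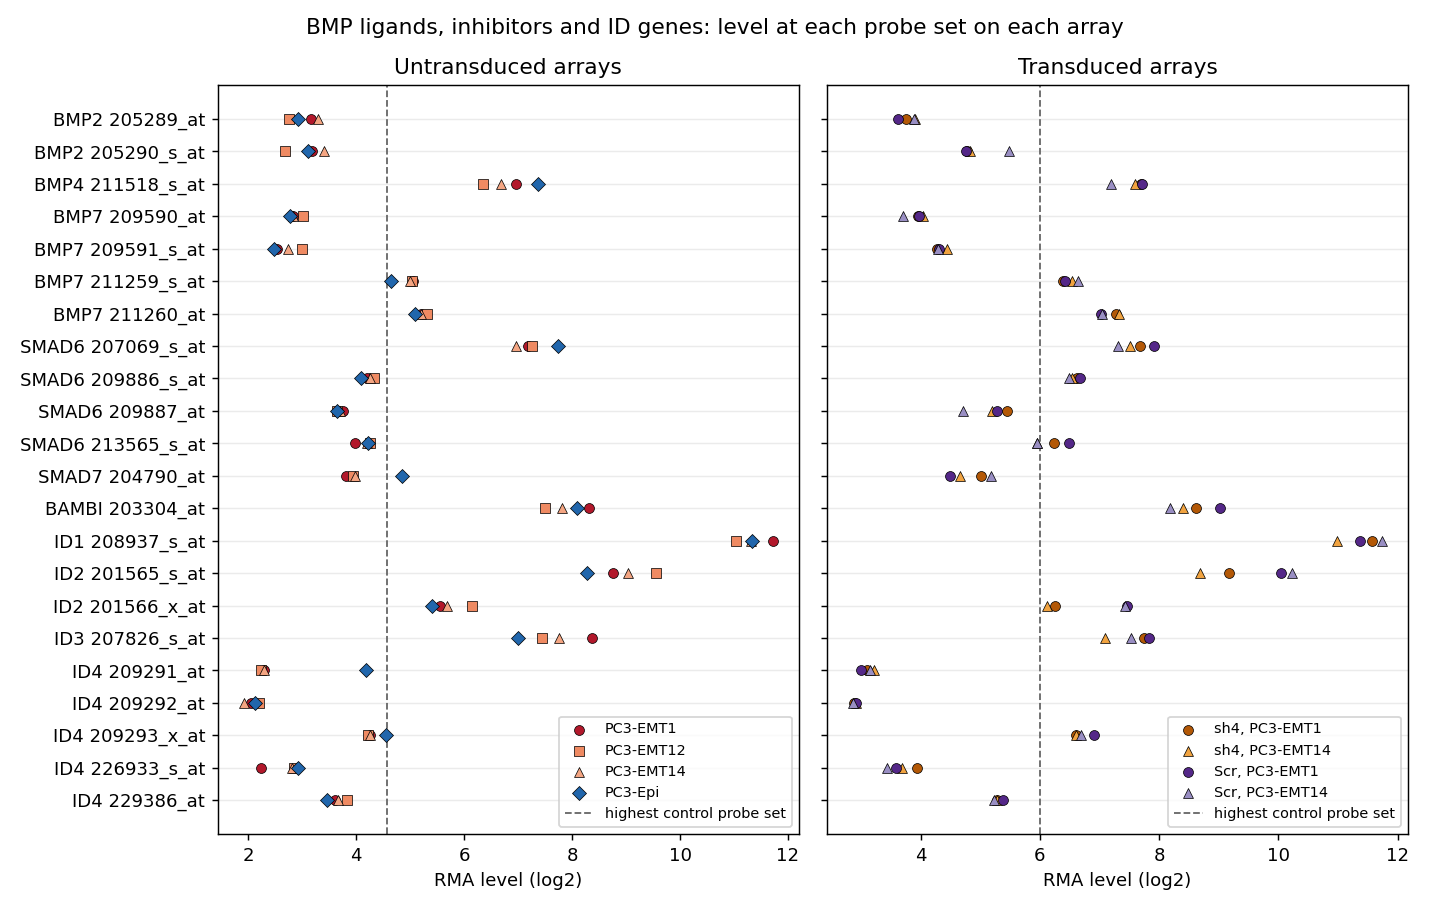
RMA level (log2) of all 22 member probe sets on each array, untransduced arrays left and transduced arrays right, each on its own scale, 1 symbol per array; the dashed line is the control limit (4.56 left, 6.00 right). Of the 22, 10 had an array past the line on the left and 12 on the right, and both BMP2 probe sets lay under it in both sets.

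Among the ligands, BMP2, a ligand of bone and heart formation, was at 2.68 to 3.41 in the EMT lines and at 2.93 and 3.11 in PC3-Epi over its 2 probe sets (205289_at and 205290_s_at). All of these values were under the control limit, so no difference in BMP2 was detectable. BMP4, a ligand that patterns early embryonic tissue and is closely related to BMP2, was read at 6.97, 6.35 and 6.69 in PC3-EMT1, -EMT12 and -EMT14, against 7.37 in PC3-Epi (211518_s_at). All 3 EMT lines lay under PC3-Epi, with differences of -1.01 to -0.40. The fitted difference was -0.70 ± 0.25 (SE, 95% interval -1.29 to -0.10), a size of 1.62-fold, with an adjusted p of 0.0863 in limma, which did not pass. Without PC3-EMT1 the adjusted p was 0.031 (limma), the only call of BMP4 in 12 alternative settings. BMP7, a ligand with a leading role in kidney development, was read at 5.05, 5.03 and 5.00 in the EMT lines, against 4.64 in PC3-Epi (211259_s_at). The 3 lines lay close together and above PC3-Epi, by 0.38 ± 0.15 in the fit (SE, adjusted p = 0.103, limma). At the other tested BMP7 probe set, 211260_at, the lines were at 5.20, 5.31 and 5.20, against 5.09 in PC3-Epi, a difference of 0.15 with an interval of -0.22 to 0.51. The probe sets 209590_at and 209591_s_at for BMP7 were at 2.47 to 3.02 and under the limit on all 4 arrays.

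Among the inhibitors, SMAD6, which blocks BMP receptors and SMAD1, was read at 7.18, 7.26 and 6.97 in PC3-EMT1, -EMT12 and -EMT14, against 7.75 in PC3-Epi (207069_s_at). All 3 lines lay under PC3-Epi by more than their own range, and SMAD6 fell by 0.61 on the log2 scale (SE 0.17, adjusted p = 0.0481, limma), a size of 1.53-fold. The adjusted p was 0.0646 without PC3-EMT1, 0.163 without PC3-EMT14 and 0.0609 with no filter, so the call was lost under each of these settings. The other 3 SMAD6 probe sets were at 3.64 to 4.34, under the limit, and with all probe sets of the gene averaged the difference was -0.11 (adjusted p = 0.511, limma). SMAD7, which inhibits both BMP and TGF-beta receptors, was read at 3.81, 3.94 and 3.99 in the EMT lines, against 4.86 in PC3-Epi (204790_at). Only the PC3-Epi array exceeded the limit of 4.56. The fitted difference was -0.94 ± 0.16 (SE, adjusted p = 0.0111, limma), but the probe set entered the test through its higher group, so its call is given as a value only. Set against the limit, SMAD7 was at least 1.22-fold lower in the EMT lines. BAMBI, which resembles a type I receptor without a kinase, was read at 8.32, 7.50 and 7.81 in PC3-EMT1, -EMT12 and -EMT14, against 8.10 in PC3-Epi (203304_at). PC3-EMT1 lay above PC3-Epi and the other lines below it, and the difference of -0.22 had an interval of -0.97 to 0.52.

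None of the 4 probe sets tested for ID1, ID2 and ID3 passed, and their 95% intervals overlapped. ID1, the family member most often used as a readout of BMP signalling, was read at 11.72, 11.04 and 11.32 in PC3-EMT1, -EMT12 and -EMT14, against 11.34 in PC3-Epi (208937_s_at). The lines lay on both sides of PC3-Epi, the difference was 0.02 ± 0.26 (SE, interval -0.62 to 0.66, adjusted p = 0.963, limma), and a 1.5-fold change in either direction lies inside that interval. ID2, an inhibitor of E proteins that also binds the retinoblastoma protein, was read at 8.75, 9.55 and 9.04 in the same lines, against 8.27 in PC3-Epi (201565_s_at). All 3 lines lay above PC3-Epi, PC3-EMT12 farthest and PC3-EMT1 least. The difference was 0.84 ± 0.30 (SE, interval 0.12 to 1.57), a size of 1.79-fold, with an adjusted p of 0.0873 in limma. Without PC3-EMT1 the adjusted p was 0.0283 (limma), the only call of this probe set in 12 alternative settings. The other ID2 probe set, 201566_x_at, whose suffix marks probes that can also match other transcripts, was at 5.55, 6.14 and 5.67 in the EMT lines, against 5.40 in PC3-Epi. It had the same order of lines and a smaller difference, 0.39 ± 0.25 (SE, adjusted p = 0.284, limma).

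ID3, which blocks E proteins in lymphocyte development, was read at 8.38, 7.45 and 7.75 in PC3-EMT1, -EMT12 and -EMT14, against 7.00 in PC3-Epi (207826_s_at). All 3 lines lay above PC3-Epi, but here PC3-EMT1 was highest and PC3-EMT12 lowest, the opposite order of lines to ID2. The difference was 0.85 ± 0.34 (SE, interval 0.03 to 1.68), a size of 1.81-fold, with an adjusted p of 0.114 in limma. Without PC3-EMT12 the adjusted p was 0.0448 (limma), the only call of ID3 in 12 alternative settings. ID4, best known from neural and mammary development, had 5 probe sets, none above the limit on any untransduced array. At 209293_x_at its levels were 4.26, 4.22 and 4.26 in the EMT lines, against 4.56 in PC3-Epi, which just missed the limit. At 209291_at they were 2.30, 2.24 and 2.30, against 4.18 in PC3-Epi. The 3 other ID4 probe sets were at 1.92 to 3.83, and at 209292_at the PC3-Epi array lay within the range of the lines.

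**Figure D2:**
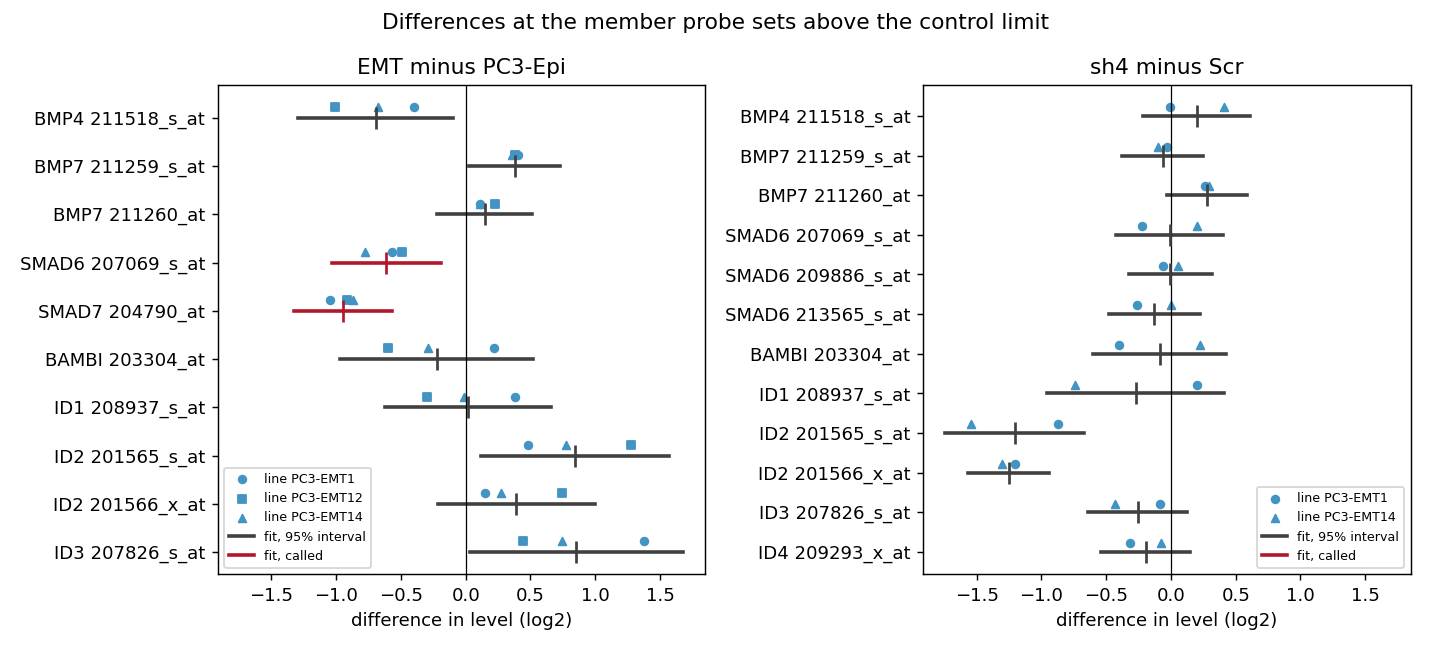
Difference in level (log2) at the member probe sets above the control limit, EMT minus PC3-Epi left and sh4 minus Scr right; horizontal bars are 95% intervals of the limma fit with the fitted value as a tick, symbols just above are the single lines, and red marks adjusted p under 0.05. SMAD6 207069_s_at and SMAD7 204790_at are red on the left, nothing is red on the right, and both ID2 probe sets lie at -1.21 and -1.25 on the right.

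Around these members, the other genes of the pathway were called in both directions in the EMT lines. Of 70 other listed genes analysed, each by its brightest probe set, 50 passed the filter. Of the 50, 8 were called higher, 6 were called lower and 36 did not pass, with a median difference of -0.03, beside 0.05 over all probe sets. The 8 include BMP6, GREM1 and PCSK5, which entered the test through the EMT arrays alone. Over the brightest probe sets of all 12857 genes tested, 12.1% were called higher and 14% lower, 26% in all, so the pathway's counts lay near the background. An unadjusted p under 0.05 was found for 23 of the 50, against 42.4% of those genes. At a probe set other than the brightest, 5 more of these genes were called, BMPR2, PPM1A and SMURF2 lower and TCF3 and TCF4 higher. These genes have 6, 6, 4, 14 and 8 probe sets, and the share of all genes called in this way was not counted. At 230820_at SMURF2 differed by 0.20 without passing. Of 4 other ligands tested, BMP6, a ligand of iron regulation and bone, was called higher by 1.35 (adjusted p = 0.0363, limma), given as a value only. It was at 5.03, 5.69 and 5.95 in PC3-EMT1, -EMT12 and -EMT14, against 4.21 in PC3-Epi, which was under the limit, so BMP6 was at least 1.99-fold higher. Of 10 receptors and co-receptors, RGMB and TGFBR3 rose, by 0.68 and 0.94, and ACVR2A, a type II receptor, fell by 0.90. BMPR2, the main BMP type II receptor, was at 5.72, 6.81 and 6.07 in the EMT lines, against 7.40 in PC3-Epi (adjusted p = 0.0681, limma). The lines all lay under PC3-Epi, PC3-EMT12 least, and at 231873_at BMPR2 was called lower, by a like difference of -1.19 (adjusted p = 0.0429, limma).

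Of the 4 SMADs that carry the signal, SMAD5 fell by 0.94, and SMAD1, SMAD4 and SMAD9 differed by -0.65, -0.47 and 0.65 without passing. SMAD9 was the only 1 of the 4 above PC3-Epi in all 3 lines. Of 6 other intracellular regulators, SKIL, a co-repressor of SMADs, fell by 1.71 (6.57, 6.46 and 6.17 in the EMT lines, 8.10 in PC3-Epi). Of 8 secreted antagonists and modulators, NOG, which encodes the BMP trap noggin, rose by 1.02, and was at 8.67, 8.25 and 8.94 in the EMT lines, against 7.61 in PC3-Epi. TWSG1, a modulator that can raise or lower BMP activity, fell by 0.72. GREM1, another BMP trap, was called higher by 1.20, and PCSK5, 1 of 5 ligand-processing proteases tested, by 1.83. At both genes PC3-Epi and 1 EMT line lay under the limit. Their EMT means were 1.02-fold and 1.17-fold above the limit. This sets no lower bound, since each mean includes a line under it. BMP6, GREM1 and PCSK5 entered the test through the EMT arrays alone, so their calls are given as values only.

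Of the 3 E proteins that ID proteins bind, TCF12 fell by 1.07 and was at 7.20, 7.47 and 7.18 in the EMT lines, against 8.36 in PC3-Epi. TCF4 and TCF3 differed by 0.43 and 0.18 at their brightest probe sets without passing. At 222146_s_at TCF4 was called higher by 0.78 (adjusted p = 0.0172, limma), and at 202648_at TCF3 by 0.66 (adjusted p = 0.0346, limma). Each was the only probe set called, of 8 for TCF4 and 14 for TCF3. Over the tested probe sets, TCF4 differed by 0.25 to 0.78 and TCF3 by -0.08 to 0.66. Of 10 other BMP target genes, HEY1, a transcriptional repressor also induced by Notch, rose by 1.59 and GATA2 by 0.68, and GATA3, a luminal lineage factor, fell by 2.17. HEY1 was at 11.99, 12.14 and 11.94 in the EMT lines, against 10.44 in PC3-Epi. GATA3 was at 6.97, 6.62 and 6.73 in these lines, against 8.94 in PC3-Epi. HEY1 rose 2-fold or more in every line, and SKIL and GATA3 fell by as much. All tested probe sets of the 14 called genes had the sign given here.

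**Figure D3:**
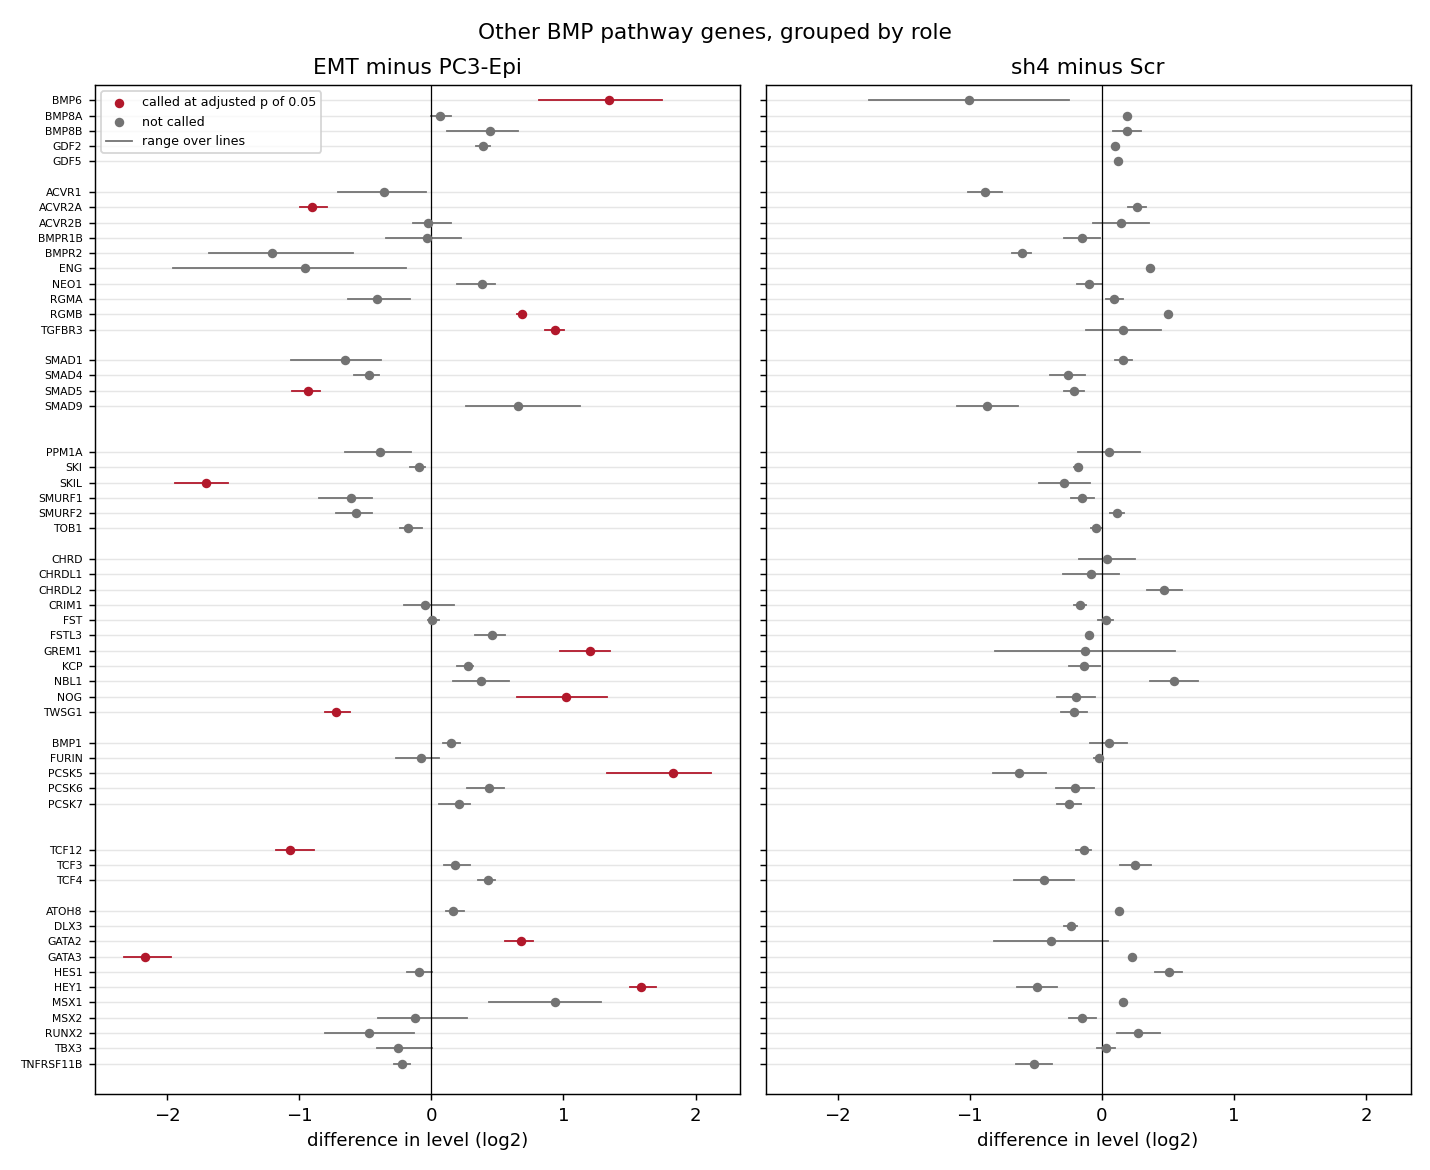
Difference in level (log2) of the other BMP pathway genes above the control limit, EMT minus PC3-Epi left and sh4 minus Scr right, grouped from top to bottom as ligands, receptors, SMADs, intracellular regulators, secreted antagonists, proteases, E proteins and other targets; points are limma fits, lines the range over cell lines, and red marks adjusted p under 0.05. On the left 14 genes are red, with HEY1 at 1.59 and GATA3 at -2.17, and none is red on the right.

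Silencing of ZEB1 went with lower ID2 in both lines at both of the ID2 probe sets used here, and no member passed limma's test. Of the 22 member probe sets, 12 exceeded the limit of 6.00 and 0 were called, while 2 had an unadjusted p under 0.05, both of ID2. Among all 31363 probe sets tested, 0% were called in either direction, so the test made no call anywhere in this comparison of 2 arrays with 2. An unadjusted p under 0.05 was found for 4521 of them (14.4%, limma). The 2 of 12 member probe sets lay near that share. By the 2-fold rule, 1 member probe set, ID2 201566_x_at, was lower in both lines, against 0.14% of all probe sets lower and 0.226% higher. The median difference was -0.11 over the member probe sets and -0.01 over all. In the sh4 array of PC3-EMT14, the ACTB control probe sets differed by 2.22 between the 3′ and 5′ ends, against 1.27 to 1.68 on the other 7 arrays, and those of GAPDH by 0.18, against -0.28 to -0.12. The part of this difference in RNA in the results for PC3-EMT14 was not tested, and values are given for each line.

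ID2 was read at 9.18 and 8.68 in the sh4 arrays of PC3-EMT1 and PC3-EMT14, against 10.05 and 10.22 in the Scr arrays (201565_s_at). At 201566_x_at it was at 6.25 and 6.12 in sh4, against 7.46 and 7.42 in Scr. The groups did not overlap at either probe set, and the gap between them was wider than the range inside either group. With 2 arrays in each group, values can separate by order alone, and the share of all probe sets that do so was not counted. The fitted differences were -1.21 ± 0.20 (SE, interval -1.74 to -0.67, adjusted p = 0.253, limma) and -1.25 ± 0.12 (SE, interval -1.57 to -0.94, adjusted p = 0.173, limma), sizes of 2.31-fold and 2.38-fold. By line, the difference was -0.87 and -1.20 in PC3-EMT1, where the RNA controls resembled those of the other arrays, and -1.54 and -1.30 in PC3-EMT14. With the untransduced arrays of both lines added to the fit, 6 arrays in all, the adjusted p was 0.0506 and 0.0123 (limma). Probe set 201566_x_at was thus called there, though not without the sh4 array of PC3-EMT14. That fit pooled sets on different scales and took the difference between lines as the same in both, which was not tested.

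ID1 was read at 11.57 and 10.99 in the sh4 arrays of PC3-EMT1 and PC3-EMT14, against 11.37 and 11.73 in the Scr arrays. The line differences were 0.20 in PC3-EMT1 and -0.74 in PC3-EMT14, and the groups overlapped (fitted difference -0.27, interval -0.96 to 0.41). ID3 was at 7.75 and 7.10 in sh4, against 7.84 and 7.52 in Scr, with differences of -0.08 in PC3-EMT1 and -0.43 in PC3-EMT14 (adjusted p = 0.454, limma). These groups overlapped too. ID4 was above the limit at 209293_x_at only, at 6.60 and 6.61 in sh4, against 6.92 and 6.68 in Scr, a difference of -0.19 with an interval of -0.54 to 0.15.

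**Figure D4:**
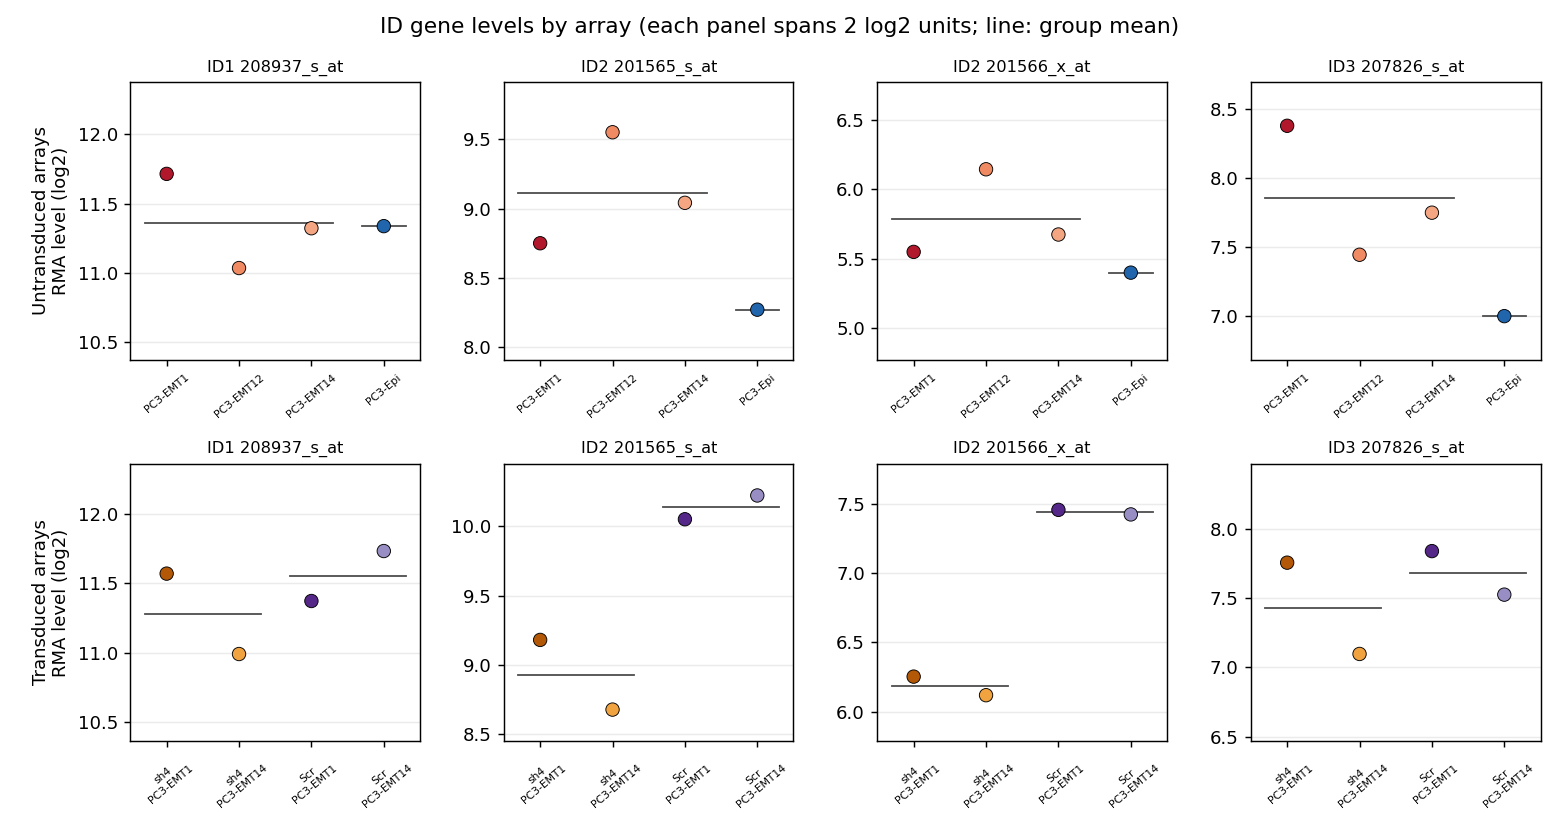
RMA level (log2) of ID1, ID2 at the 2 probe sets used and ID3 on each array, untransduced arrays in the upper row (EMT lines, then PC3-Epi) and transduced arrays in the lower row (sh4, then Scr), every panel covering the same height. Points are arrays and short lines group means. ID2 lies above PC3-Epi in all 3 EMT lines and its sh4 points lie under both Scr points, whereas ID1 overlaps between groups in both rows.

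The inhibitors and ligands differed little between sh4 and Scr, and not in the same direction in both lines in most cases. SMAD6 was at 7.68 and 7.51 in sh4, against 7.91 and 7.31 in Scr (207069_s_at), and its difference of -0.01 had an interval of -0.42 to 0.40. At 213565_s_at SMAD6 differed by -0.13 (interval -0.48 to 0.22), and at 209886_s_at the interval was -0.32 to 0.31 around a value near 0. SMAD7 was under the limit in all 4 arrays, at 5.01 and 4.66 in sh4, against 4.49 and 5.18 in Scr. BAMBI was at 8.62 and 8.41 in sh4, against 9.02 and 8.18 in Scr, with the sh4 values inside the range of Scr. BMP4 was at 7.70 and 7.59 in sh4, against 7.71 and 7.18 in Scr, a difference of 0.20 with an interval of -0.21 to 0.61. BMP7 was at 7.28 and 7.33 in sh4, against 7.02 and 7.04 in Scr (211260_at), higher in both lines by 0.28 ± 0.11 (SE, adjusted p = 0.371, limma), but at 211259_s_at it differed by -0.06 (6.39 and 6.55, against 6.42 and 6.65). BMP2 was under the limit, at 3.75 to 4.83 in sh4 and 3.62 to 5.48 in Scr.

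Of the 70 other pathway genes analysed, 55 passed the filter in the transduced set, 0 were called by limma and 12 had an unadjusted p under 0.05, against 14.3% of the brightest probe sets of all genes. Their median difference was -0.08, beside -0.01 over all probe sets. ACVR1, a type I receptor, was at 8.69 and 8.91 in the sh4 arrays of PC3-EMT1 and PC3-EMT14, against 9.44 and 9.93 in the Scr arrays, a difference of -0.88 (adjusted p = 0.238, limma). It was the 1 pathway gene called in the fit of 6 arrays, which pooled sets on different scales. SMAD9 was at 7.56 and 7.20 in sh4, against 8.19 and 8.30 in Scr, a difference of -0.87 (adjusted p = 0.261, limma). BMPR2 was at 7.83 and 8.40 in sh4, against 8.51 and 8.93 in Scr. BMP6 was at 6.69 and 7.10 in sh4, against 6.94 and 8.86 in Scr, with differences of -0.25 in PC3-EMT1 and -1.76 in PC3-EMT14. HEY1 was at 12.43 and 12.33 in sh4, against 12.78 and 12.97 in Scr. NOG differed by -0.20 and SKIL by -0.28, without passing. RGMB was at 10.34 and 10.58 in sh4, against 9.85 and 10.08 in Scr. Of the 12 with an unadjusted p under 0.05 in limma, RGMB, HES1, NBL1, CHRDL2 and ENG were higher in sh4 and the others lower. HES1 differed by 0.51, NBL1 by 0.54, CHRDL2 by 0.47 and ENG by 0.36, without passing.

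To ask which genes had a pattern most like a member's, the distance between genes over the 8 arrays was taken after each set of 4 was centred on its own mean, among 12536 genes above the limit in both sets. For ID2, whose range over the untransduced arrays was 1.28, the nearest gene was SMAD9, the BMP SMAD named above, at a distance of 0.40, followed by STON1 at 0.42 and FKBP7 at 0.46, against a median over all genes of 1.64. For ID3 (range 1.37) they were PEX6 at 0.35, PIERCE1 at 0.36 and S100A4 at 0.45 (median 1.21), and for BMP4 (range 1.01) ADM at 0.23, GAD1 at 0.25 and RUNX2 at 0.27 (median 1.03). Averaged over lines, SMAD9 differed by 0.65 between EMT and PC3-Epi and by -0.87 between sh4 and Scr. S100A4, a calcium-binding protein often used as a mesenchymal marker, differed by 0.76 and -0.06. These distances describe 8 arrays that share lines and were not tested.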

How the data were processed

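Transcript levels were measured on 8 Affymetrix human expression arrays with 54675 probe sets. The deposited log2 values were made by the authors with RMA, run in the affy package (version not given in the sources used here). These values were used unchanged. Of the probe sets, 62 were controls, 41091 carried 1 gene symbol in the platform annotation, 1801 several and 11721 none.

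Differences were fitted in R 4.3.3 with limma 3.58.1, eBayes and Benjamini-Hochberg adjustment over all tested probe sets, at 0.05. EMT against PC3-Epi used the 4 untransduced arrays by group (2 residual degrees of freedom, prior 4.30), with the lone PC3-Epi array assumed to vary like the EMT lines. sh4 against Scr used the 4 transduced arrays with the line as a block (1 residual degree of freedom, prior 3.31), since the labels number arrays by cell line and so pair them. Over the 31363 probe sets tested, the difference between lines in sh4 correlated with that in Scr (r = 0.43). For probe sets above the limit in 1 group only, a fold is given against the limit.

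The text names all members, then up to 4 pathway genes a list with the largest called difference and those needed for small counts. It also names the 3 nearest genes for the 3 members of widest range among those above the limit in both sets. BMPR2, SMAD1, SMAD4, SMAD9, ACVR1, RGMB, TCF3, TCF4, PPM1A, SMURF2 and the uncalled values of called genes were added after their values were seen. HES1, NBL1, CHRDL2, ENG and the differences of single mesenchymal markers were added in the same way. The members and the lists were chosen with earlier results of these data known. A few of the listed genes were not analysed here. Other filters, normalizations, probe set summaries, eBayes settings, fold limits, arrays and left-out arrays were tried as alternatives. The number of arrays limits the precision. Figures were drawn with matplotlib 3.10.9.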

Additional observations from a re-analysis of the deposited data

Results flagged for a closer look

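In 8 cases a tested member probe set lay on opposite sides in different lines, and this difference between lines was not tested, since each line has 1 array per group. The share of all probe sets that split in this way was not counted. At SMAD6 213565_s_at both PC3-EMT14 arrays were under the control limit, with a difference of 0.0032. For BMP4 in sh4 against Scr, the difference in PC3-EMT1 was -0.01. In EMT against PC3-Epi, the highest and lowest line differed by 0.825 (log2) for BAMBI and by 0.679 for ID1. In sh4 against Scr, PC3-EMT1 and PC3-EMT14 differed by 0.940 for ID1, 0.626 for BAMBI, 0.418 for BMP4, and 0.425, 0.263 and 0.118 for the SMAD6 probe sets 207069_s_at, 213565_s_at and 209886_s_at. The sh4 array of PC3-EMT14 is the one whose ACTB and GAPDH control probe sets stood apart, and its part in these differences was not tested.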

How the results depend on the processing

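In EMT against PC3-Epi, 2 member probe sets were called. The count was 1 with a filter at log2 5, with a filter on the mean level and with quantile normalization of all 8 arrays, 1 gene when probe sets were averaged per gene, and 1 to 3 when 1 EMT line was left out (1 without PC3-EMT14, 3 without PC3-EMT1 or PC3-EMT12). SMAD7 was not tested under either filter and SMAD6 did not pass after quantile normalization (adjusted p = 0.0595). With no filter the count stayed at 2, but the members called were SMAD7 and ID4 209291_at in place of SMAD7 and SMAD6. ID4 209291_at differed by -1.90 and was under the limit on every untransduced array. The 2-fold rule gave 1 member instead of 0 with no filter (ID4 209291_at) or a limit of 1.5-fold. The 14 pathway calls were 10 to 18 without 1 line, and calls over all probe sets, 6787, were 3282 without PC3-EMT14.

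In sh4 against Scr, 0 members were called, against 1 in the fit of 6 arrays (0 to 2 when 1 array was left out there), and pathway calls were 1, with the same range. Without the replicate block, 0 members and 1 of all probe sets were called, against 0 of all with it and 228 in the fit of 6 arrays. The 2-fold rule gave 0 instead of 1 with the brightest probe set per gene, with 32 added on the linear scale or at 3-fold, 2 at 1.5-fold, and 1 to 2 without 1 line or array. Over the settings run, ID2 kept its direction, at -1.57 to -0.84 (201565_s_at) and -1.52 to -0.97 (201566_x_at).

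Among tested members, the direction turned in the following fits, with no call; values of single lines are in the report. For EMT, ID1 was at -0.053 after cyclic loess, -0.051 after quantile normalization and -0.16 to 0.18 when 1 line was left out, lowest without PC3-EMT1. For sh4, SMAD6 was at 0.0074 after cyclic loess, 0.047 after quantile normalization and 0.046 as a mean of probe sets. In the fit of 6 arrays without 1 array, SMAD6 207069_s_at was at 0.10 or 0.19, 209886_s_at at 0.088 and 213565_s_at at 0.13, BAMBI at 0.14 or 0.15, ID1 at 0.0094 or 0.15 (-0.27 in the fit of 4 arrays) and BMP7 211259_s_at at 0.021. The cause was not tested.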
